A study of Homo sapiens with 24 samples.

Results

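The genes described here are the long intergenic non-coding RNA genes of A549 cells, taken as the genes whose symbol is LINC followed by digits. Of 302 such genes in a table of 22026 genes, 78 had at least 0.5 RPKM in at least 2 of the 12 mRNA libraries and are called LINC genes below. RPKM divides the reads of a gene by its length and by the depth of the library. The members were thus selected on their RPKM, whichever medium it came from. A549 is a human cell line grown from an adenocarcinoma of the lung and epithelial in kind. Its cells were given either control medium or CAF conditioned medium, CAF being an abbreviation that the labels do not spell out and that usually stands for cancer-associated fibroblast. They were collected after 3, 6, 12, 24, 48 and 72 h, and 6 libraries of polyadenylated RNA were made per medium, 1 per medium and time. The sources used here do not give the origin of the conditioned medium or the make-up of the control medium. The title of the study concerns markers of epithelial-mesenchymal transition.

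Long intergenic non-coding RNAs are transcripts made outside protein-coding genes, usually capped, spliced and polyadenylated like mRNA but with no long reading frame. Some act as RNA, by binding proteins or by influencing genes beside them, some are the precursors of miRNAs or snoRNAs, and some were later shown to encode small proteins. They are typically less abundant than mRNA and more restricted to particular cell types. The symbol LINC with a number is a provisional name for a gene with no known role, and many of these genes have since been renamed. Of the 78 LINC genes 77 were found in RefSeq, 22 of them under another symbol. RefSeq now lists 69 as long non-coding RNA genes, 7 as protein-coding and 1 as a transcribed pseudogene. The renamed ones include LINC00657 (now NORAD), LINC00263 (OLMALINC), LINC00568 (FALEC), LINC00340 (CASC15) and LINC00478 (MIR99AHG).

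Over the 6 times 6 LINC genes passed the test of CAF medium against control, and the start regions of these 6 are shown because the results turn on them. Each window runs from 250 bases before to 50 bases after the first listed start in RefSeq (build GRCh38.p14) and is written in the direction of transcription. Capitals mark matches, on either strand, to 6 motifs searched for. The TATA box was searched as TATAAA and the CCAAT box by the letters of its name. The GC box, to which Sp1 binds, was searched as GGGCGG. The E-box of MYC and its relatives was searched as CACGTG. The AP-1 type element was searched as TGACTCA. The CRE of the factor CREB was searched as TGACGTCA, and none of these motifs contains another.
LINC00263, chr10:100373326-100373625, plus strand: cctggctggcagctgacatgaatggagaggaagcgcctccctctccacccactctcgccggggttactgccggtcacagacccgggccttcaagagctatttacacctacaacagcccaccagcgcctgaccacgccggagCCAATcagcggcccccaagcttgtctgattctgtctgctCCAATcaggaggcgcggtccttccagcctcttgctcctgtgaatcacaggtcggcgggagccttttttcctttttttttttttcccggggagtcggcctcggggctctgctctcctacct
LINC00862, chr1:200373743-200374042, minus strand: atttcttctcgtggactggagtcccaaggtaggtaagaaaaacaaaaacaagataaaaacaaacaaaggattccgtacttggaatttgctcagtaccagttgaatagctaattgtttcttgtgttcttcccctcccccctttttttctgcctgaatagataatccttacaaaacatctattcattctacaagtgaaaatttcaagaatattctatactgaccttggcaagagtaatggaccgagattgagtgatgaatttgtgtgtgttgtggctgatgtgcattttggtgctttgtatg
LINC00173, chr12:116533172-116533471, plus strand: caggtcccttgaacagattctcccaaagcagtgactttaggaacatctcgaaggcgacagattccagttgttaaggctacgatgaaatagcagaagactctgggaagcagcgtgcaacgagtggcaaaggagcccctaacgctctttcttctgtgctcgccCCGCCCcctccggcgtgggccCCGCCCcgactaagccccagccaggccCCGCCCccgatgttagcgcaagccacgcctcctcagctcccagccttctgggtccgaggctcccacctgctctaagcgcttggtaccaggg
LINC00568, chr1:150515502-150515801, plus strand: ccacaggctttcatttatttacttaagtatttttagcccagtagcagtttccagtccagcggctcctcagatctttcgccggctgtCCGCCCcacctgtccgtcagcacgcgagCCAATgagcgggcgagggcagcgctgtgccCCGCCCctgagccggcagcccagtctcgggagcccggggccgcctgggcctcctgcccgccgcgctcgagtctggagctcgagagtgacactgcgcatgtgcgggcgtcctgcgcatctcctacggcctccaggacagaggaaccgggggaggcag
LINC00313, chr21:43478174-43478473, minus strand: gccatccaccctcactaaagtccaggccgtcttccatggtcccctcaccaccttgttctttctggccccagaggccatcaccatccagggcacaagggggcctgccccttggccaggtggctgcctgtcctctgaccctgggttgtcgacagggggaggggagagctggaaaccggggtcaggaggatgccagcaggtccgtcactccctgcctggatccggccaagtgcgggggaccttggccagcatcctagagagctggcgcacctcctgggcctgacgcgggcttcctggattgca
LINC00941, chr12:30795431-30795730, plus strand: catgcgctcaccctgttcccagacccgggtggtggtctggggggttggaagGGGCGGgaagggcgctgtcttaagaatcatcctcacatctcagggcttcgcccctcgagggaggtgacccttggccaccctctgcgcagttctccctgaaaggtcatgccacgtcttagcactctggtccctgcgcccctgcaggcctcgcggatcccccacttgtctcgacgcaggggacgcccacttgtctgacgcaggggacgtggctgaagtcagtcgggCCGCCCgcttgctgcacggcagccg

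LINC00263 held 2 CCAAT boxes, which begin 109 and 70 bases before the start. LINC00568 held 1 CCAAT box and 2 GC boxes. LINC00173 held 3 GC boxes and LINC00941 held 2. The windows of LINC00862 and LINC00313 held none of the 6 motifs. The LINC00862 window had a GC content of 37.3% and 3 CpG sites, while the other 5 had 60 to 66% and 9 to 26 sites. The TATA box, the E-box, the AP-1 type element and the CRE were in none of the 6 windows. Among all 27305 windows of this length in the table, 35.7% held a CCAAT box, 44.6% a GC box, 12.0% a TATA box, 7.43% an E-box, 4.92% an AP-1 type element and 1.98% a CRE. Among the 60 LINC genes with a window, a CCAAT box was in 24 (40%), a GC box in 23 (38.3%) and a TATA box in 5 (8.33%). A match is a description of the letters and not evidence of a bound factor.

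Most LINC genes were expressed at a low level. The mean over the 12 libraries was at least 10 RPKM in 6 of the 78, 1 to 10 in 37 and under 1 in 35, and the median was 1.16 RPKM. For all 14014 genes that met the same rule the median was 5.71 RPKM. LINC00657, LINC00493 and LINC00673 together took 46.5% of the summed mean RPKM of the LINC genes. All 78 together made up 0.0791 to 0.129% of the summed RPKM of a library. Because the rule used these levels they are given as a description. Just inside the rule, the second highest value was 0.50 RPKM for LINC00479 and 0.56 for LINC00327 and LINC00597. Just outside it, the second highest value was 0.49 for LINC00936 and 0.45 for LINC00648 and LINC00265.

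LINC00657 (chromosome 20), which as NORAD binds PUMILIO proteins and keeps chromosome numbers stable, had the highest mean, 64.8 RPKM. It measured 54.12, 55.22, 52.99, 69.48, 75.00 and 71.79 RPKM in control medium at 3, 6, 12, 24, 48 and 72 h. In CAF medium it measured 56.51, 52.92, 36.07, 68.02, 111.54 and 74.31 RPKM. The 12 h CAF library was the lowest of all 12 and the 48 h CAF library the highest, and at the other 4 times the media lay close together. LINC00493 (chromosome 20, mean 57.5 RPKM) is listed by RefSeq as SMIM26, which encodes a small mitochondrial protein, and ranged from 38.80 to 81.16 RPKM. LINC00673 (chromosome 17, mean 56.1 RPKM), a transcript studied in several carcinomas, ranged from 38.84 to 81.63 RPKM. LINC00467 (chromosome 1, mean 30.6 RPKM) ranged from 20.32 to 38.68 RPKM. LINC00313 (18.96), LINC00263 (11.6), LINC00085 (9.02) and LINC00888 (8.05) followed by mean RPKM. The ranges of LINC00657, LINC00493 and LINC00673 overlap widely, so their order is not fixed beyond the spread between libraries.

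The LINC genes also differed in how much they varied. In 66 of 78 the highest library had at least 2 times the RPKM of the lowest. The share of all genes that did so was not worked out, so this count is a description only. The widest span of the 78 was that of LINC00326, 102-fold, which rests on 0.01 RPKM, about 1 read, in both libraries of 3 h. Among the 43 genes that averaged 1 RPKM or more LINC00173 spanned 45.6-fold, from 0.09 to 4.10 RPKM, LINC00263 13.6-fold and LINC00669 13.0-fold. At the narrow end LINC00094 spanned 1.31-fold, from 2.92 to 3.82 RPKM. The 78 genes lay on 19 chromosomes, with 8 on chromosome 17.

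**Figure D1:**
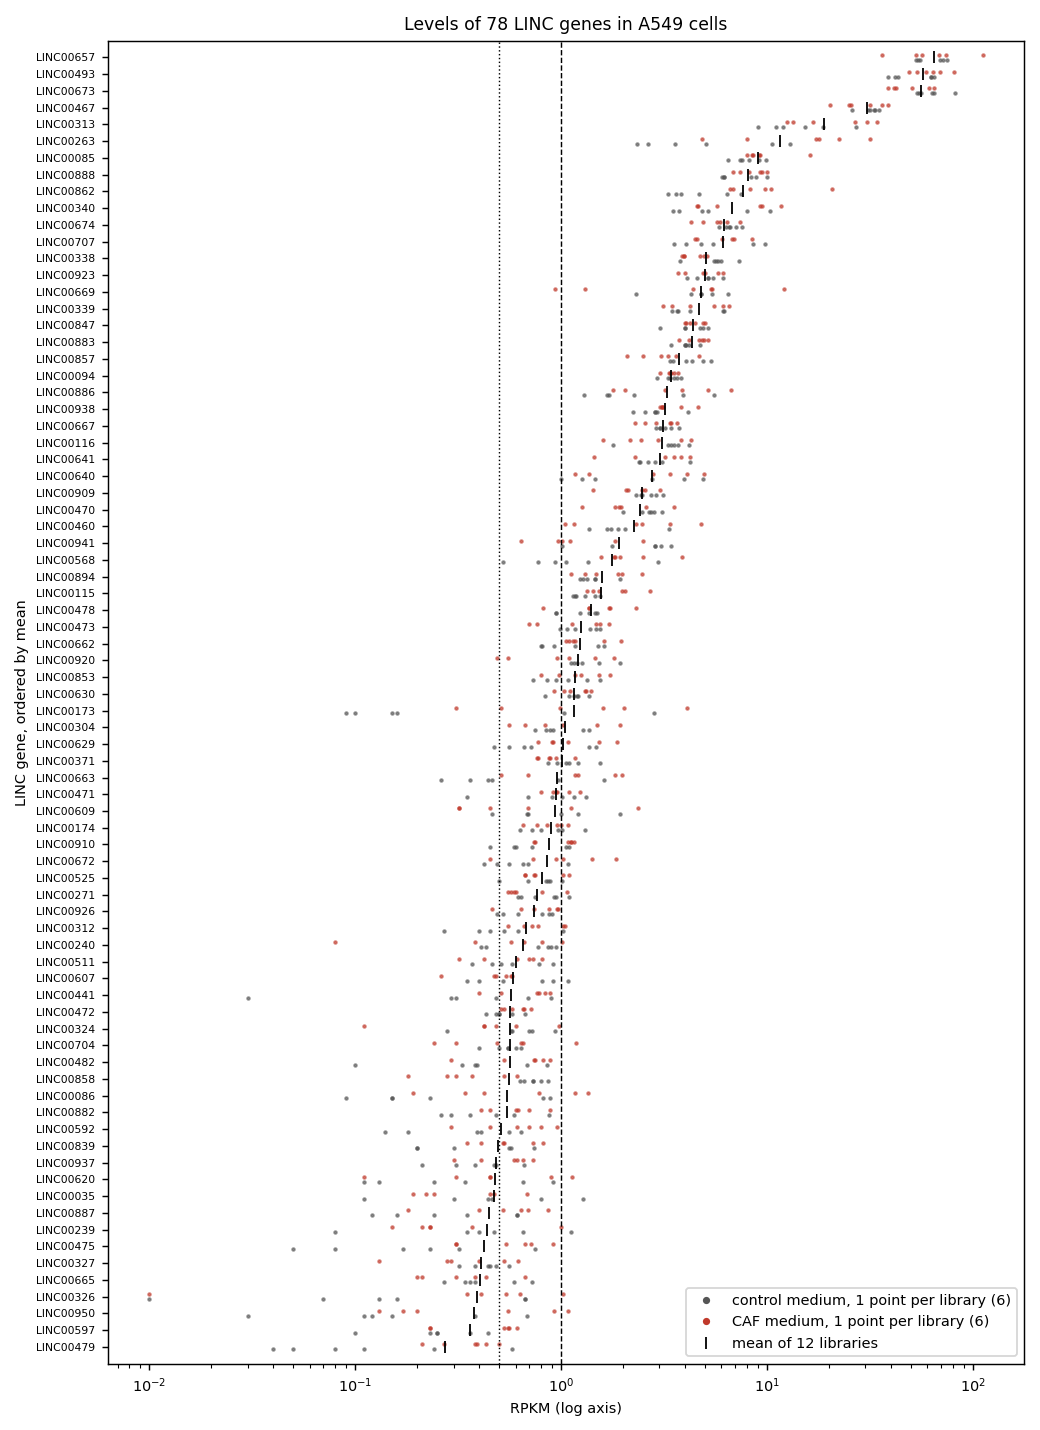
RPKM of the 78 LINC genes (log axis) in the 6 control medium libraries (grey points) and the 6 CAF medium libraries (red points), 1 point per library, ordered by the mean of the 12 libraries (black mark). The dotted line is the 0.5 RPKM of the rule and the dashed line is 1 RPKM. The upper 6 genes have means of at least 10 RPKM, and 35 genes have means under 1 RPKM, where the points of a gene spread most widely.

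Depth bears on how firmly these values stand. From the smallest steps between values, the 6 libraries of 3 to 12 h held 23.9 to 29.3 M reads each. Those of 24 to 72 h held 33.9 to 40.6 M, so depth and the later part of the course cannot be told apart. A LINC gene had a median of 80 implied reads per library, from 1 to 22506, and 13.2% of the values rested on under 20 reads. Intervals from these reads cover counting error only. The epithelial markers KRT8, KRT18, KRT7, AKR1B10 and ALDH1A1 were at 183 to 4768 RPKM, and CDH1 and EPCAM were lower (0.24 to 40.04 RPKM). Of 10 fibroblast markers 5 reached 1 RPKM, with a summed level of 7.92 to 15.8 RPKM in control and 10.8 to 16.8 in CAF medium. COL1A1, FBN1, FAP, THY1 and LUM reached 5.81, 5.36, 4.71, 2.22 and 1.43 RPKM. The means in control and CAF medium were 2.8 and 4.2 RPKM for COL1A1 and 0.48 and 1.15 for THY1, and lay closer for FBN1, FAP and LUM. These differences were not examined further. The collagen genes COL1A2 and COL3A1, PDGFRB and POSTN stayed at or under 0.16 RPKM, and DCN reached 0.6. Of 4 markers of blood and endothelial cells, CD68 alone reached 1 RPKM, and it was at 13.96 to 30.62 RPKM. The others, PTPRC, PECAM1 and CD3E, stayed at or under 0.08 RPKM. Only polyadenylated RNA was sequenced, and in bulk RNA less RNA per cell and fewer cells of a kind cannot be told apart.

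CAF medium was associated with higher levels of 5 LINC genes and lower levels of 1 across the course. LINC00263, LINC00862, LINC00173, LINC00568 and LINC00313 rose, and LINC00941 fell. The test (limma on log2(RPKM + 0.5), time as a factor, p adjusted by Benjamini-Hochberg over all genes tested) covered the 43 LINC genes that averaged 1 RPKM or more. The 5 that rose are 11.6% of these 43, beside 6.06% of the 12029 genes tested. The 1 that fell is 2.33%, beside 4.13% of all genes tested. In either direction 14.0% of the tested LINC genes and 10.2% of all genes passed. At an unadjusted p under 0.05 there were 13. With no time term 0 of the 43 passed (limma, 8 unadjusted), and with no filter on low values 0 of the 78 (26 unadjusted). The shares of all genes under these settings are not given here. The median log2 difference was 0.07 for the 43 LINC genes and 0.00 for all genes tested. A value on this scale understates the change of low genes. The 6 times stand in for replicates, since no medium and time has a second library, and the sources used here do not say whether the design's 2 biological replicates were pooled. No tested LINC gene had all 6 CAF libraries above, or all 6 below, the 6 control libraries (0.200% and 0.158% of all genes did).

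LINC00263 (OLMALINC, chromosome 10), first described in the maturation of oligodendrocytes and lying beside the fatty acid desaturase gene SCD, had the largest change. Its control values were 2.34, 2.65, 3.58, 5.06, 10.55 and 12.85 RPKM at 3, 6, 12, 24, 48 and 72 h. Its CAF values were 4.83, 8.01, 22.36, 17.31, 31.74 and 17.90 RPKM. CAF medium gave more at every time, by 2.06-fold at 3 h, 6.25-fold at 12 h and 1.39-fold at 72 h, and the groups overlap because both media climbed with time. Over the 6 times control medium averaged 6.17 ± 4.45 RPKM (SD) and CAF medium 17.0 ± 9.76. The log2 change was 1.42 ± 0.21 (SE, limma adjusted p = 0.0121). The lowest control value rested on 62 reads. Without the 6 h pair the adjusted p was 0.0502 (limma).

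LINC00862 (chromosome 1) rose by a similar amount at most times. It measured 3.61, 3.31, 4.65, 3.82, 7.46 and 6.41 RPKM in control medium and 6.80, 6.64, 9.76, 8.22, 20.61 and 10.44 in CAF medium at the same times. At all 6 times CAF medium gave the higher value, by 1.63 to 2.76-fold, and the CAF values at 3 and 6 h lay below the highest control value. The log2 change was 0.97 ± 0.11 (SE, limma adjusted p = 0.00597). It passed whichever single time was left out.

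LINC00173 (chromosome 12), known from blood cells and several cancers, was close to absent early and appeared late. Control medium gave 0.09, 0.10, 0.15, 0.16, 1.03 and 2.81 RPKM and CAF medium gave 0.31, 0.51, 0.99, 1.60, 2.01 and 4.10. CAF values were higher at 6 of 6 times. From 3 to 24 h no CAF value lay within the control range of those times, though the share of all genes that do so was not worked out. At 3 h the control value stood for 5 reads (0.0305 to 0.219 RPKM, exact 95% Poisson interval) and the CAF value for 18 (0.182 to 0.485 RPKM). The log2 change was 0.88 ± 0.17 (SE, limma adjusted p = 0.0190), and it missed the threshold without the 6, 12 or 24 h pair (0.0637, 0.0672 and 0.0563).

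LINC00568 (FALEC, chromosome 1), named for its amplification in tumours, measured 0.93, 0.52, 0.77, 1.05, 1.35 and 2.95 RPKM in control medium. In CAF medium it measured 1.81, 1.94, 1.56, 2.50, 1.82 and 3.87 RPKM. From 3 to 12 h all CAF values lay above all control values, though the share of all genes that do so was not worked out. At 72 h both media were at their highest. The log2 change was 0.71 ± 0.14 (SE, limma adjusted p = 0.0190). The gene model has 566 bases, and the control value at 6 h stood for 7 reads (0.208 to 1.07 RPKM). Leaving out the pair of 6, 12 or 24 h ended the call (limma adjusted p = 0.0659, 0.0653 and 0.0666).

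LINC00313 (chromosome 21) was the most abundant of the 6. It measured 11.11, 9.03, 11.94, 15.27, 18.74 and 27.10 RPKM in control medium and 12.44, 13.32, 16.67, 30.70, 34.30 and 26.84 in CAF medium. The CAF library was higher from 3 to 48 h, most at 24 and 48 h, and the media were level at 72 h. The log2 change was 0.50 ± 0.13 (SE, limma adjusted p = 0.0402). With 6, 12, 24 or 48 h left out the limma adjusted p was 0.111, 0.0973, 0.131 or 0.0843. In RefSeq the gene overlaps HSF2BP, a gene of meiotic recombination, and the sources used here do not say whether the counting used strand, so reads of the overlap cannot be told apart. HSF2BP itself was at 6.46 ± 1.13 RPKM in control and 5.86 ± 1.01 in CAF medium and was higher in CAF medium at 1 of 6 times only.

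LINC00941 (chromosome 12), a transcript described in epithelial tumours and in keratinocytes, was the 1 LINC gene that fell. Control medium gave 2.86, 3.42, 3.05, 2.86, 1.76 and 1.01 RPKM and CAF medium gave 1.82, 2.51, 1.01, 1.10, 0.64 and 0.97. The CAF library was lower at 6 of 6 times, most at 12, 24 and 48 h, where the log2 differences were -1.23, -1.07 and -0.99. At 72 h the control had come down to the CAF level. The log2 change was -0.71 ± 0.16 (SE, limma adjusted p = 0.0263), and it was lost without the 6, 12, 24 or 48 h pair (0.0668, 0.0849, 0.0896 and 0.0552).

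**Figure D2:**
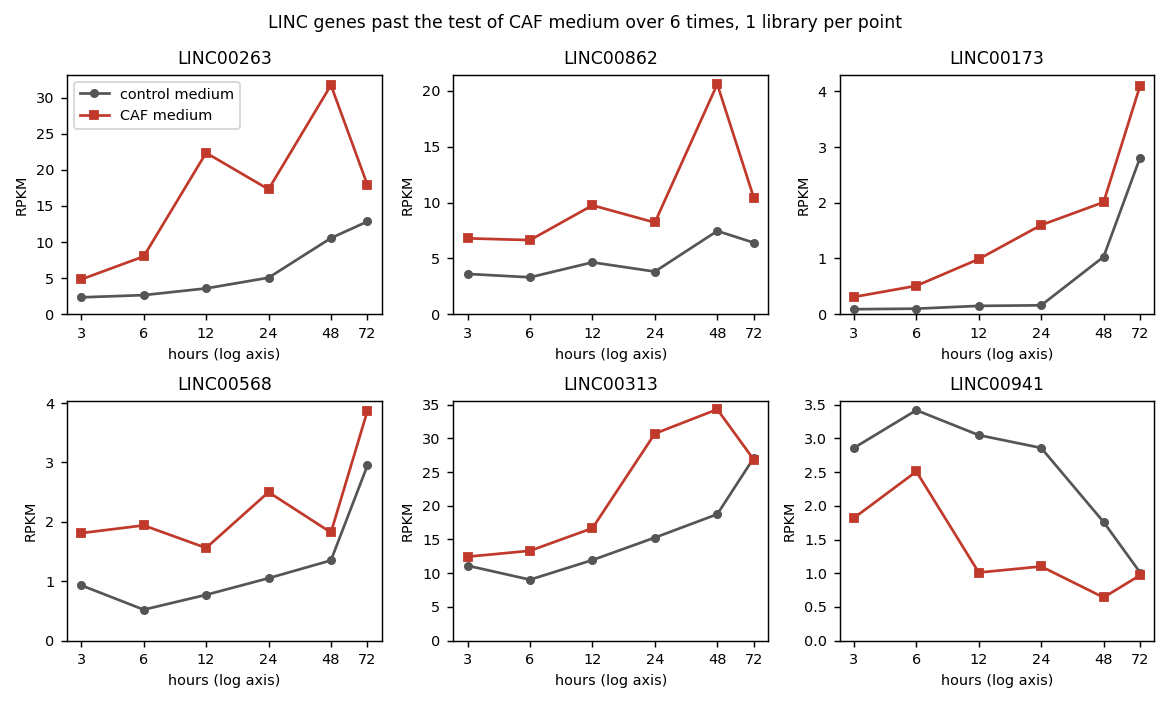
RPKM of the 6 LINC genes past the test of CAF medium, against hours on a log axis, in control medium (grey circles) and CAF medium (red squares), 1 library per point and no error bars because each medium and time has 1 library. The red line is above the grey line at all 6 times for LINC00263, LINC00862, LINC00173 and LINC00568, and below it for LINC00941, while LINC00313 ends level at 72 h (27.10 and 26.84 RPKM).

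The remaining 37 tested LINC genes did not pass. Of all 43 tested, 4 were higher in CAF medium at 6 of 6 times (9.30%, beside 8.97% of all genes) and 1 was lower at 6 of 6 (2.33%, beside 7.81%). LINC00857 and LINC00673 came closest on the lower side (log2 -0.37 and -0.33, limma adjusted p = 0.0689 and 0.0600), and LINC00886 on the higher side (log2 0.44, limma adjusted p = 0.0749). For LINC00673 the control mean was 62.3 ± 10.5 RPKM and the CAF mean 49.8 ± 10.98 (SD over 6 times), with the CAF library lower at 5 of 6 times. The abundant LINC00657 had a log2 change of 0.01 ± 0.13 and LINC00493 of 0.27 ± 0.11 (SE, limma adjusted p = 0.977 and 0.132).

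**Figure D3:**
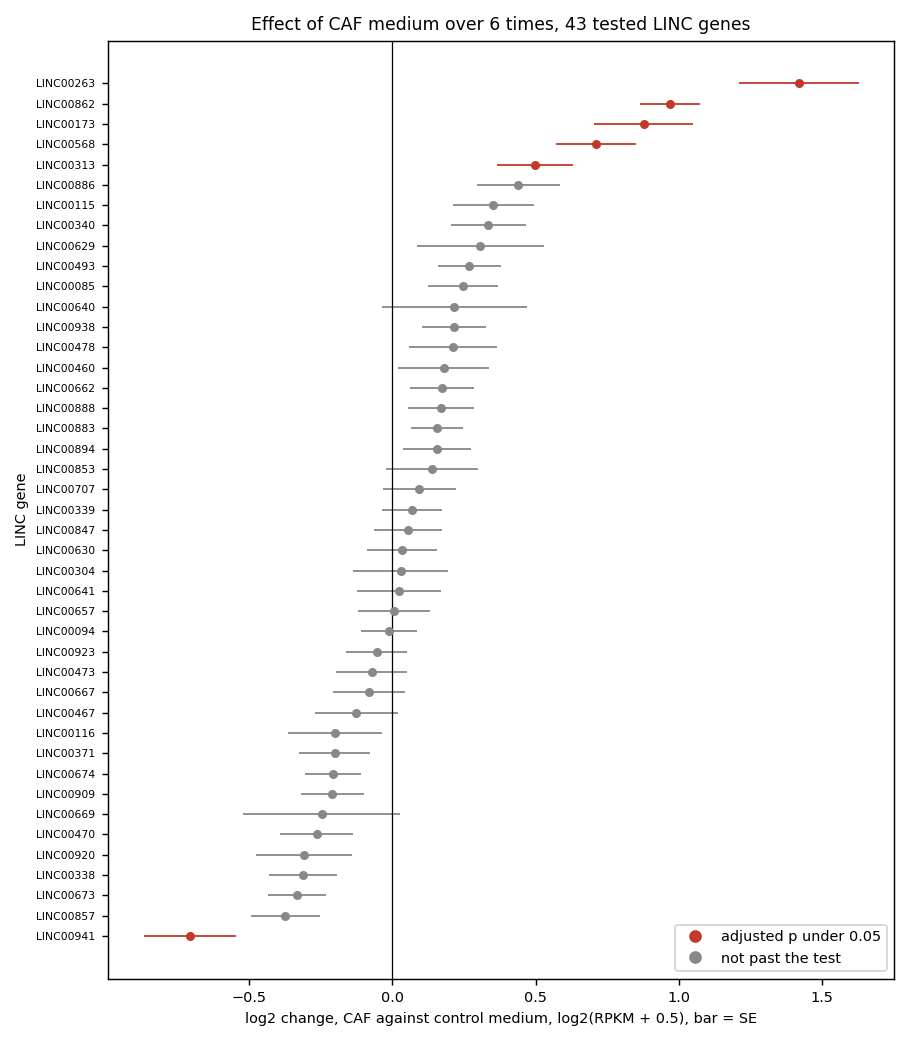
Log2 change of CAF against control medium over the 6 times for the 43 tested LINC genes, with the standard error as a bar, red where the adjusted p was under 0.05. LINC00263 (1.42) stands farthest to the right and LINC00941 (-0.71) farthest to the left, and the genes that did not pass (grey) lie within 0.5 of 0.

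The effect of CAF medium was also fitted separately over 3 to 12 h and over 24 to 72 h. Over 3 to 12 h LINC00263 (log2 1.61 ± 0.28, limma adjusted p = 0.0162), LINC00862 (0.91 ± 0.15, 0.0131) and LINC00568 (0.88 ± 0.19, 0.0286) rose. They are 6.98% of the tested LINC genes, beside 3.77% of all genes higher and 5.63% in either direction. No LINC gene fell over these times (limma, 0 of 43, 2 at an unadjusted p under 0.05), beside 1.86% of all genes. LINC00263 averaged 2.86 ± 0.645 RPKM in control and 11.7 ± 9.34 in CAF medium over these 3 times. For LINC00568 the means were 0.740 ± 0.207 and 1.77 ± 0.193 RPKM (SD, n = 3 times). Without the 6 h pair or without the 12 h pair none of the 3 passed.

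Over 24 to 72 h LINC00263 (log2 1.23 ± 0.28, limma adjusted p = 0.0348) and LINC00862 (1.03 ± 0.15, 0.00504) were again higher, 4.65% of the tested LINC genes beside 1.36% of all genes. LINC00669 and LINC00857 fell, also 4.65%, beside 2.74% of all genes. In either direction 9.30% of the tested LINC genes passed, beside 4.09% of all genes. LINC00669 (chromosome 18), now named for the miRNA gene MIR924 that it hosts, gave 6.47, 4.26 and 2.30 RPKM in control and 4.35, 1.31 and 0.93 in CAF medium at 24, 48 and 72 h (log2 -0.96 ± 0.23, limma adjusted p = 0.0445). LINC00857 (chromosome 10), studied in lung adenocarcinoma lines, gave 5.35, 4.05 and 3.48 RPKM in control and 3.31, 2.50 and 2.09 in CAF medium (log2 -0.61 ± 0.14, limma adjusted p = 0.0356). The CAF library was the lower one at all 3 times for both genes. The ranges of the media overlapped for LINC00669 and not for LINC00857, and the share of all genes without overlap at these 3 times was not worked out. LINC00857 lost its call without any single time other than 3 h (adjusted p = 0.0532 to 0.213), and LINC00669 lost it without 48 or 72 h (0.364 and 0.0969, limma). A pseudocount of 1 RPKM in place of 0.5 also ended the call of LINC00669 (limma adjusted p = 0.0524). Without the 48 h pair no LINC gene passed over these times. Without the 24 h pair LINC00862 and LINC00669 alone did, and LINC00263 was at 0.138 (limma adjusted p).

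LINC00669 was the LINC gene whose early and late values pointed most clearly in opposite directions. At 3, 6 and 12 h it measured 4.78, 5.39 and 4.80 RPKM in control and 5.35, 5.43 and 12.13 in CAF medium. CAF medium was therefore slightly above the control at 3 and 6 h, 2.53-fold above it at 12 h, and below it at each later time. The late effect minus the early one was -1.43 ± 0.33 on the log2 scale (SE, limma adjusted p = 0.0943), which did not pass. No LINC gene passed that test (limma, 0 of 43, 2 at an unadjusted p under 0.05), beside 0.416% of all genes (0.0582% higher and 0.357% lower). Without the 24 h pair LINC00669 did pass (log2 -1.65, limma adjusted p = 0.0320).

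Single times have no replicate, so a log2 difference of at least 1 is used only as a description. Among the 43 tested LINC genes the numbers higher by that much were 0, 2, 4, 5, 2 and 0 at 3, 6, 12, 24, 48 and 72 h. Of all genes 1.20, 2.32, 2.96, 3.38, 2.24 and 0.150% were. The numbers lower by that much were 0, 0, 1, 1, 1 and 0, beside 0.981, 0.973, 1.33, 0.707, 3.17 and 0.757% of all genes. LINC00263 had the largest difference at 6, 12, 24 and 48 h (log2 1.43, 2.49, 1.68 and 1.54). At 3 h the largest was that of LINC00035, a transcribed pseudogene of 473 bases, at log2 -1.30 from 16 against 3 reads. At 72 h no LINC gene reached 1. LINC00640 (chromosome 14) changed sides between times, with 1.46 RPKM in control and 4.95 in CAF medium at 12 h but 2.76 and 1.36 at 24 h. The CAF library of 48 h had the highest value of 14 of the 43 tested LINC genes (32.6%, beside 19.1% of all genes), and that of 12 h of 7 (16.3%, beside 10.5%). The same libraries had the lowest value of 6 at 48 h (14.0%, beside 17.8% of all genes) and of 5 at 12 h (11.6%, beside 21.7%).

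**Figure D4:**
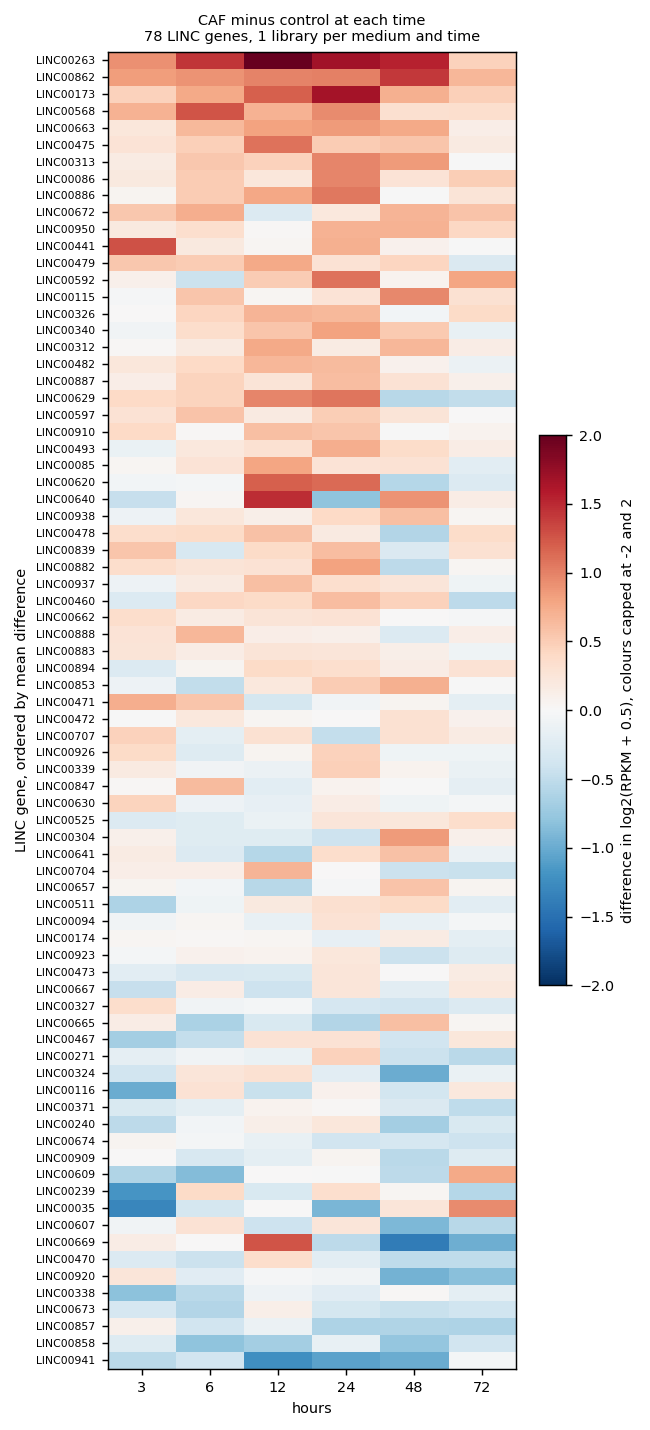
Difference of CAF minus control in log2(RPKM + 0.5) at each time for all 78 LINC genes, ordered by their mean difference, with colours capped at -2 and 2. Red cells (higher in CAF medium) run along the whole row for LINC00263 and LINC00862 at the top, LINC00941 at the bottom is blue from 3 to 48 h and near white at 72 h, and LINC00669 turns from red at 12 h to blue from 24 h.

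With both media averaged, 10 LINC genes changed along the course, 7 upward and 3 downward. Slopes within each medium were not tested. The test took the mean of both media at each of the 6 times and fitted a slope on log2 of the hours, so a slope is a log2 change per doubling of time. The 7 that rose are 16.3% of the tested LINC genes, beside 15.1% of all genes, and the 3 that fell are 6.98%, beside 9.62%. In either direction the shares were 23.3% and 24.7%. With each library centred on its median the split was 6 up and 6 down, and with quantile normalization 6 up and 5 down. LINC00173 and LINC00263 rose most, by 0.50 ± 0.07 and 0.48 ± 0.05 per doubling (SE, limma adjusted p = 0.00289 and 0.00196). The mean of both media went from 0.200 RPKM at 3 h to 3.46 at 72 h for LINC00173. For LINC00263 it went from 3.58 RPKM at 3 h to 21.1 at 48 h and 15.4 at 72 h.

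The other LINC genes that rose with time were LINC00886 (slope 0.34), LINC00313 (0.30), LINC00340 (0.27), LINC00862 (0.22) and LINC00339 (0.16). LINC00886 (chromosome 3) averaged 1.94 RPKM over 3 to 12 h and 4.56 over 24 to 72 h. LINC00340, which as CASC15 lies in a neuroblastoma risk locus, averaged 4.49 and 8.97 RPKM over the same times. LINC00862 missed the threshold under both other scalings (limma adjusted p = 0.0610 and 0.0636). The 3 that fell were LINC00640 and LINC00669 (slope -0.32 each) and LINC00941 (-0.24). LINC00640 averaged 3.79 RPKM early and 1.72 late, and LINC00941 averaged 2.44 and 1.39. The fall of LINC00669 was smaller in control medium (4.99 RPKM early and 4.34 late) than in CAF medium (7.64 and 2.20). Without the 6, 48 or 72 h pair LINC00669 missed the threshold (limma adjusted p = 0.0760, 0.116 and 0.252) and so did LINC00862 (0.0988, 0.0957 and 0.0568). LINC00339 missed it without the 6, 24, 48 or 72 h pair (limma adjusted p = 0.114, 0.0525, 0.141 and 0.128). LINC00941 missed it without the 72 h pair (0.0709). With 3 h left out 16 LINC genes passed the test of time, and the share of all genes for this setting is not given here. The libraries of 24 to 72 h were also the deeper ones, and the part of depth in these slopes cannot be told apart from time.

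**Figure D5:**
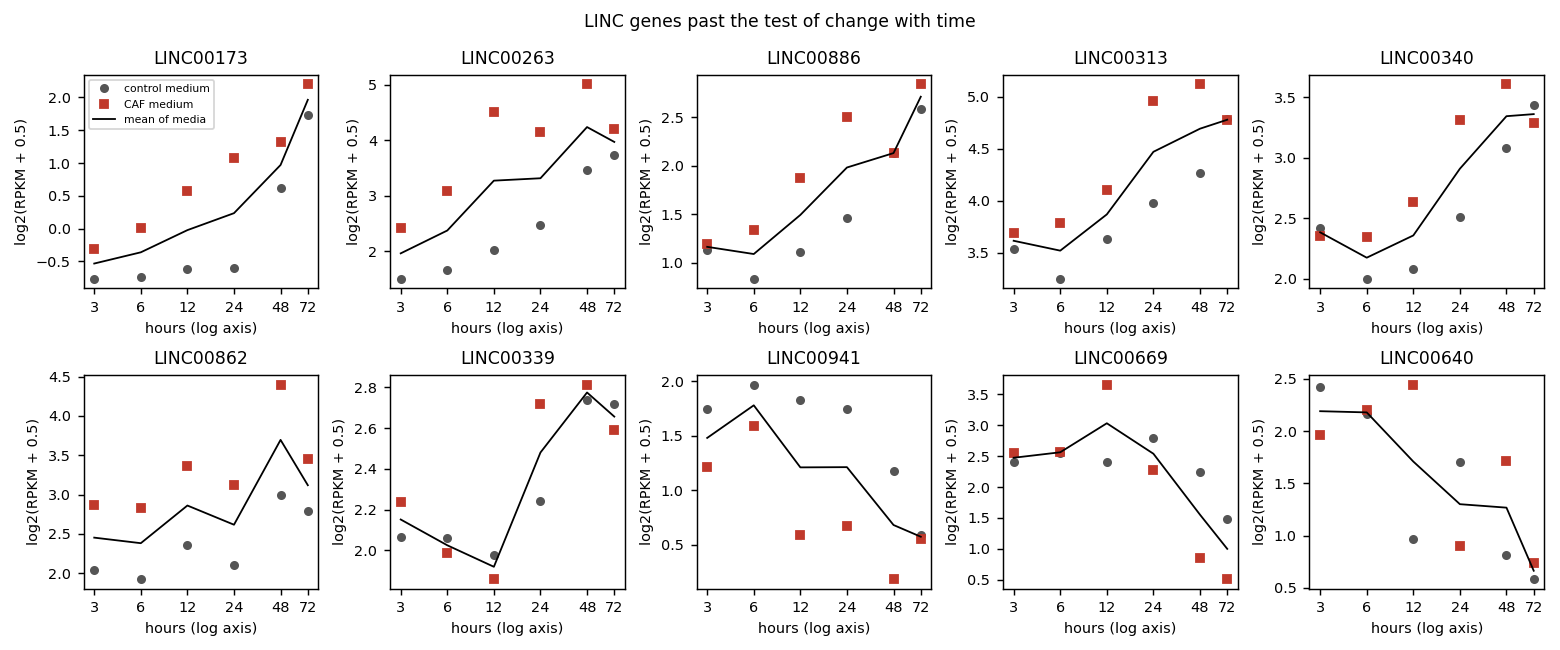
Log2(RPKM + 0.5) against hours on a log axis for the 10 LINC genes past the test of change with time, with control medium (grey circles), CAF medium (red squares) and the mean of both (line), 1 library per point. The line climbs in LINC00173, LINC00263, LINC00886, LINC00313, LINC00340, LINC00862 and LINC00339, and descends in LINC00941, LINC00669 and LINC00640, where single media scatter around it.

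Among the LINC genes with a described function as RNA, 12 of 14 listed were in the table and 8 could be tested. LINC00263 rose over the 6 times and the other 7 did not pass, with a median log2 change of 0.05 beside 0.00 for all genes tested. LINC00473, a target of CREB known from lung tumours without the kinase LKB1, measured 0.99 to 1.55 RPKM in control and 0.70 to 1.70 RPKM with CAF medium (log2 -0.07, limma adjusted p = 0.732). LINC00460, LINC00707 and LINC00662, all described as promoting tumour growth, had log2 changes of 0.18, 0.09 and 0.17 (limma adjusted p = 0.476, 0.654 and 0.325). LINC00467 averaged 31.6 ± 3.14 RPKM with control medium and 29.5 ± 7.14 with CAF medium (log2 -0.13, limma adjusted p = 0.590). LINC00511, LINC00312, LINC00472 and LINC00665 were under a mean of 1 RPKM and had no test. LINC00152 and LINC00963 were not analysed here.

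Some LINC genes turned out to encode small proteins. Of 8 such genes listed, 4 were in the table and 2 were expressed enough to be tested. LINC00116, which encodes the mitochondrial protein mitoregulin, averaged 3.32 RPKM with control medium and 2.88 with CAF medium (log2 -0.20, limma adjusted p = 0.435). LINC00493 was higher in CAF medium at 5 of 6 times without passing. LINC00948 and LINC00675 stayed at a mean of 0.0317 RPKM or lower in either medium.

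Several LINC genes carry miRNAs or snoRNAs in their introns or exons and connect to the small RNA libraries, which held 0.87 to 5.88 M reads. LINC00085, now the protein-coding gene SPACA6, holds miR-99b, let-7e and miR-125a, and LINC00478 holds miR-99a and let-7c. LINC00478 also hosts miR-125b-2, which is not described here. The mature 5p sequences of the others are shown because the miR-99 copies share a seed and so do the let-7 copies. That of miR-125a-5p, whose seed differs from the others shown, is given with its cluster. Capitals mark the seed, bases 2 to 8, and the sequences are those of RefSeq.
hsa-miR-99b-5p: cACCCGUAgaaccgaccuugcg
hsa-miR-99a-5p: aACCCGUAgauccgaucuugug
hsa-let-7e-5p: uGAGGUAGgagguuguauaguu
hsa-let-7c-5p: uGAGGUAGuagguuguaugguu
hsa-miR-125a-5p: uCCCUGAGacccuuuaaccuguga

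The seed ACCCGUA is common to miR-99b-5p and miR-99a-5p, and GAGGUAG to let-7e-5p and let-7c-5p. The small RNA values are RPM (reads scaled to a common library total) and were not tested. In the cluster within LINC00085, miR-99b-5p ranged from 3941.88 to 19372 RPM in control and from 3296.12 to 15800.3 in CAF medium, and miR-125a-5p from 3627 to 9788.7 and from 4360.65 to 5858. Let-7e-5p was at 820 ± 113 RPM in control and 849 ± 194 in CAF medium (SD over 6 times). Their host LINC00085 was at 8.11 ± 1.25 and 9.93 ± 3.11 RPKM, and did not pass (log2 0.25, limma adjusted p = 0.201). Within LINC00478, miR-99a-5p was at 1709 ± 589 RPM in control and 1797 ± 512 in CAF medium. Let-7c-5p was at 37.61 to 60.48 RPM in control and 32.18 to 126.17 in CAF medium, higher in CAF medium at 5 of 6 times. Their host LINC00478 was at 1.24 and 1.55 RPKM on average (log2 0.21, limma adjusted p = 0.376). The miRNAs within LINC00669, miR-924 and miR-5583, did not exceed 3.17 RPM in any library, a handful of reads. LINC00338, now SNHG20, hosts a snoRNA and miR-6516. This host had a mean of 5.66 ± 1.12 RPKM for control medium and 4.41 ± 0.575 for CAF medium (log2 -0.31, limma adjusted p = 0.110). Mature miR-6516-3p averaged 8.11 RPM in control and 19.99 in CAF medium, and was higher in CAF medium at 5 of 6 times. It reached 84.1 RPM in CAF medium at 48 h. Mature miR-6516-5p averaged 6.33 RPM in control and 2.695 in CAF medium, and was higher in CAF medium at 1 of 6 times.

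The genes beside the LINC genes are of interest because some long non-coding RNAs act on their neighbours. Neighbours were taken from the order of genes in RefSeq. Only protein-coding genes with the same symbol in the deposited data were kept, so a nearer gene under another symbol is left out. For 31 tested LINC genes the nearest gene so kept was also tested. Its log2 change over the 6 times had the same sign as that of the LINC gene in 14. Of these 31 LINC genes 5 passed, 2 of the neighbours passed, and in no pair did both pass (limma). Of all genes tested 10.2% passed. Beside LINC00263, SCD, which makes monounsaturated fatty acids, averaged 94.3 ± 56.9 RPKM with control medium and 124 ± 48.0 with CAF medium (log2 0.50, limma adjusted p = 0.0809) and was higher in CAF medium at 5 of 6 times. SCD measured 53.95, 47.03, 58.04, 73.11, 171.25 and 162.55 RPKM in control and 88.10, 94.10, 66.74, 166.26, 187.19 and 140.61 in CAF medium. Its control values, like those of LINC00263, were highest at 48 and 72 h. At 12 h, where LINC00263 differed most, SCD differed little.

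Beside LINC00173, MAP1LC3B2, a gene of the autophagy protein LC3 family, measured at most 0.68 RPKM in control medium before 72 h and 2.91 at 72 h. In CAF medium it measured 0.81, 3.85 and 5.89 RPKM at 24, 48 and 72 h (log2 0.78 over the 6 times, limma adjusted p = 0.0735). Beside LINC00568, ADAMTSL4, whose product binds fibrillin in the matrix, was higher in CAF medium at 6 of 6 times (log2 0.52, limma adjusted p = 0.0581), while ECM1 on its other side was at 0.460 and 0.400 RPKM on average and had no test. Beside LINC00862, ZNF281, a zinc finger repressor, had a log2 change of 0.13 (limma adjusted p = 0.472). Beside LINC00941, CAPRIN2 had a log2 change of -0.02 (limma adjusted p = 0.954). Of the 78 LINC genes at least 9 overlap a protein-coding gene in RefSeq. Only coding genes with the same symbol in RefSeq and in the deposited data were counted.

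The 35 LINC genes with a mean under 1 RPKM had no test, and their means ran from 0.273 to 0.956 RPKM. Of these, 6 were higher in CAF medium at 6 of 6 times and 1 was lower at 6 of 6. Among all 1985 genes that met the same RPKM rule with a mean under 1 RPKM, 12.7% were higher at 6 of 6 times and 3.88% lower, beside 17.1% and 2.86% of these LINC genes, so the counts are a description only. LINC00663 (chromosome 19) measured 0.36, 0.26, 0.46, 0.44, 0.96 and 1.62 RPKM in control and 0.51, 0.69, 1.17, 1.20, 1.98 and 1.82 in CAF medium. LINC00475 (chromosome 9) went from 0.05 to 0.75 RPKM in control and from 0.31 to 0.91 in CAF medium. LINC00086 and LINC00950 (now the protein-coding gene TMEM8B) were also higher in each CAF library, and reached 1.35 and 1.08 RPKM. LINC00858 (chromosome 10) was the lower one, with 0.63 to 0.86 RPKM in control and 0.18 to 0.61 in CAF medium. Its 2 ranges did not overlap, but the share of such genes under 1 RPKM was not worked out. Of the 78 LINC genes 69 met the rule in control libraries alone and in CAF libraries alone, among them all 43 that were tested. The other 9 met it in at most 1 of the media, and for these the rule itself bears on the difference. LINC00475 and LINC00950 are among the 9 and met it through CAF libraries only, so nothing is read from their higher CAF values.

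Other long non-coding RNA genes, with names of their own, served as a comparison of kind. Of 42 listed genes 37 were in the table and 27 were tested. Over the 6 times MALAT1 and FTX rose (log2 0.56 and 0.34, limma adjusted p = 0.0394 and 0.0391) and MIR22HG fell (-0.63, limma adjusted p = 0.0208). That is 2 up and 1 down of 27, beside 6.06% up and 4.13% down of all genes and 5 up and 1 down of the 43 LINC genes, and this difference was not tested. MALAT1, a nuclear RNA of splicing speckles, was at 1946 RPKM in control and 2941 in CAF medium on average, far above any LINC gene. Over 3 to 12 h DLEU1 rose (log2 0.75) and MIR22HG and SNHG15 fell (-0.95 and -0.99). Over 24 to 72 h NEAT1, the RNA of paraspeckles, and EPB41L4A-AS1 rose (log2 0.84 and 1.13, limma adjusted p = 0.0135 and 0.0381). With time 8 of the 27 rose and 3 fell, beside 15.1% and 9.62% of all genes.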

How the data were processed

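The authors deposited the 12 mRNA libraries as 1 table of RPKM, rounded to 2 decimals, with a column of gene model lengths. Small RNA values are RPM, scaled by the authors to a common total, and were only described. The submitters' processing notes name TopHat2, edgeR, Bowtie and the build hg19. The sources used here do not say how reads were counted, whether strand was used or how the 2 biological replicates of the design were joined. No value column was without a sample.

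Reads per value were worked out from the smallest steps in gene models under 400 bases, where 100% of 42 to 84 values per library were whole within 0.1 read.

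log2(RPKM + 0.5) was tested in the 12029 genes that averaged 1 RPKM or more, with limma 3.58.1 (lmFit and eBayes with trend, two-sided) in R 4.3.3, adjusted by Benjamini-Hochberg at 0.05. Each CAF library was compared with the control of its own time. The script was tested on simulated data. Tables were read with Python 3.11.15. GRCh38.p14 (RefSeq) gave names, neighbours and promoter windows, and no hg19 coordinate was converted.

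The LINC genes and the gene lists were chosen with earlier results of these data known. Genes were named by rule: the 8 with the highest means, those past a test (at most 8 or 6 per direction), the 4 largest per direction among untested genes that moved 1 way at 6 of 6 times, the largest difference at each time and the listed genes. LINC00339, LINC00525, LINC00326, LINC00094 and the nearest neighbours were named after their values were seen. Alternatives were other pseudocounts, filters and scalings, no time term and leaving out each time.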

Additional observations from a re-analysis of the deposited data

Results flagged for a closer look

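Among 68 groups of 6 libraries checked (34 named LINC genes in each medium), 6 had a library far from the other 5. Chance flags about 1 in 20 groups of true replicates. The 6 libraries of a group are different times, so that rate does not hold for genes that change with time. LINC00085 reached 16.21 RPKM in CAF medium at 12 h, where the other CAF libraries had at most 9.27. LINC00862 reached 20.61 RPKM in CAF medium at 48 h, where the next highest CAF library had 10.44. LINC00460 reached 3.33 RPKM in control medium at 48 h. In the control library of 72 h, LINC00173 (2.81 RPKM) and LINC00568 (2.95 RPKM) stood above the other control libraries, and LINC00116 (1.79 RPKM) stood below them.

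LINC00669 and LINC00525 had CAF differences of one sign at 3, 6 and 12 h and of the other sign at 24, 48 and 72 h. For LINC00669, higher early and lower late, the difference of the effects was -1.43 on the log2 scale (limma adjusted p = 0.0943). For LINC00525, lower early and higher late, it was 0.49, at a mean of 0.810 RPKM, and it was not tested.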

How the results depend on the processing

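Pseudocounts of 0.1 and 1 RPKM, median centring and quantile normalization gave 6 LINC genes past the test over the 6 times, 3 over 3 to 12 h, 4 or 5 over 24 to 72 h, 0 for late minus early and 10 to 12 for time. A pseudocount of 1 RPKM ended the late call of LINC00669 (limma adjusted p = 0.0524), and it made a late call of LINC00173 (0.0383), as did median centring (0.0435) and quantile normalization (0.0332). With a mean of at least 0.5 RPKM the counts were 8, 3, 4, 0 and 16, of 65 LINC genes tested. With no filter on low values 0 of 78 passed in the full, early and late comparisons (26, 13 and 22 at an unadjusted p under 0.05, limma), and 14 passed for time. With no replicate block, that is with no time term pairing each CAF library with its control, 0 of 43 passed over the 6 times (8 unadjusted). Leaving out the pair of each time in turn gave 1 to 7 LINC genes over the 6 times, 0 to 4 over 3 to 12 h, 0 to 4 over 24 to 72 h, 0 to 1 for late minus early and 7 to 16 for time. Over the 6 times the count was 1 without 6 h, 2 without 12 h, 2 without 24 h and 4 without 48 h. With the 12 libraries as separate values 15 passed for time, and 8 did for 24 to 72 h against 3 to 12 h. No named LINC gene reversed its direction where it had passed. The shares of all genes under these settings are not given here, so these counts cannot be read as particular to LINC genes. The causes of these changes were not tested. Low read numbers limit LINC genes under 1 RPKM most.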
